A study of Mus musculus with 12 samples.

Results

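Prostaglandin synthesis and signalling was followed in the mouse kidney through 10 genes, taken by gene symbol from the 32692 genes of the deposited tables. They are the cyclooxygenase genes Ptgs1 and Ptgs2, the synthase genes Ptgds and Ptges, the degrading-enzyme gene Hpgd, the genes of the prostaglandin E receptors (Ptger1, Ptger2, Ptger3 and Ptger4) and Ptgfr, the gene of the prostaglandin F receptor. RNA-seq had been made from whole kidneys of wild-type, untreated mice at day 0 (6 libraries) and at day 8 (5 libraries), around an aim of finding transcripts that differ between these neonatal ages. The labels list 12 samples, and 1 day 8 sample was not analysed here. They give no strain, sex or litter, and they do not say that each library came from its own animal, so p-values measure only the spread between libraries.

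Prostaglandins are made from arachidonic acid, which phospholipases A2 release from membranes. Cyclooxygenases turn it into prostaglandin H2, terminal synthases turn that into prostaglandin D2, E2, F2 alpha, prostacyclin or thromboxane, and the products act close to their source on G protein-coupled receptors. Hpgd inactivates prostaglandins E2 and F2 alpha. In the kidney, prostaglandin E2 regulates blood flow, renin release and the handling of salt and water, and mice without Ptgs2 develop abnormal kidneys after birth.

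The largest difference among the 10 genes was in Ptgds, which rose 15.3-fold between day 0 and day 8. Hpgd rose 2.03-fold, and the receptor genes Ptger3, Ptger4 and Ptgfr rose by 1.41-fold to 1.48-fold. Ptges fell 1.25-fold. Ptgs1, Ptgs2, Ptger1 and Ptger2 did not pass the test (edgeR quasi-likelihood test, adjusted p under 0.05 over all tested genes). All 10 genes had enough counts to be tested, so 5 were called higher and 1 lower. The ages differed widely: of 18763 tested genes, 27.5% were called higher at day 8 and 30.1% lower. For 4 members all day 8 libraries were above all day 0 libraries in CPM, and for 1 all were below, against 19.1% and 21.4% of all tested genes. Ptgds and Hpgd were the 2 members called higher by at least 2-fold, against 4.83% of all tested genes. The median log2 fold change was 0.29 over the 10 members and -0.01 over all tested genes.

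The promoters of both cyclooxygenase genes and of the 2 members that rose most are shown here. Cyclooxygenases act before the enzymes of the other 2 genes in the pathway. Each window holds 250 bases before and 30 after the gene's RefSeq start (GRCm38.p6), written 5′ to 3′ along the gene's strand. Of the 10 members, 9 were matched to a RefSeq promoter, and Ptger1 was not. The windows are chr2:36230176-36230455 on the plus strand (Ptgs1), chr1:150099781-150100060 on the plus strand (Ptgs2), chr2:25469720-25469999 on the minus strand (Ptgds) and chr8:56294302-56294581 on the plus strand (Hpgd). Capitals mark matches to 4 short motifs, searched on both strands. These are the TATA box motif TATAAA, the E-box motif CACGTG, the cyclic AMP response element half-site TGACG and the nuclear receptor half-site AGGTCA.
Ptgs1: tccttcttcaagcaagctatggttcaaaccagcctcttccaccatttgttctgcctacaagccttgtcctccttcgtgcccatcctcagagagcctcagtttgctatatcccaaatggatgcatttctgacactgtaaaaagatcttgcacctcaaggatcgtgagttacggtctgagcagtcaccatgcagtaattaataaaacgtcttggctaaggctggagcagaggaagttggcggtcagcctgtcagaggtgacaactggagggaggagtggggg
Ptgs2: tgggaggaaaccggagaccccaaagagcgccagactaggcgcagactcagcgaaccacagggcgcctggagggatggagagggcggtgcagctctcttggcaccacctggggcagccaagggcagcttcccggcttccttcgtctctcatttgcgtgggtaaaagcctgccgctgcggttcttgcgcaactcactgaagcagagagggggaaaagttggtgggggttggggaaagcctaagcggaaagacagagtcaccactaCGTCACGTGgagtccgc
Ptgds: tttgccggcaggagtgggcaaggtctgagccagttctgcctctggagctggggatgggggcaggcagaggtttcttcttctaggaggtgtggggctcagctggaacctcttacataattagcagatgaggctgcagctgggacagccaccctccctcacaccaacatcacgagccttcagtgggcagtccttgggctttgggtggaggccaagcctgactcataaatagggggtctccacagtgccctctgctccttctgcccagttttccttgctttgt
Hpgd: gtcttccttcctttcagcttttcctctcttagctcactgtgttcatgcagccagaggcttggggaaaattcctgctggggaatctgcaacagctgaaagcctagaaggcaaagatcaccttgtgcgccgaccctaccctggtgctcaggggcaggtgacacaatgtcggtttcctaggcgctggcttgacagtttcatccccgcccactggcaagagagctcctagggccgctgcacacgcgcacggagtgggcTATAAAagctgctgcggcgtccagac

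In the Ptgs2 window, CACGTG matched at bases 267 to 272, and TGACG matched on the opposite strand at bases 264 to 268. The 2 matches overlap, and both lie after the RefSeq start. In the Hpgd window, TATAAA matched at bases 255 to 260, just after the RefSeq start. The GENCODE start of Hpgd, at position 56294585, lies beyond the end of this window, so the match lies before that start. The Ptgs1 and Ptgds windows held none of the 4 motifs. Among all 32851 RefSeq promoters, cut to the same length of 280 bases, TATAAA was found in 13.1%, CACGTG in 6.79%, TGACG in 19.9% and AGGTCA in 15.3%. Such matches describe the letters of these windows and do not show that a factor binds there. The Ptgds window starts from a RefSeq start that lies inside the gene as GENCODE annotates it, so it is not the region before the outermost annotated start.

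Library totals lay between 18222170 and 24428652 estimated counts. Levels within a gene are given as CPM, counts relative to the TMM-scaled library total, and levels between genes as TPM, which is per transcript length. Proximal tubule markers (Slc34a1, Lrp2, Slc5a2, Slc22a6) summed to 3390 to 4410 CPM at day 0 and 7500 to 8310 CPM at day 8, so the labelled tissue showed in every library. Markers of other tissues varied between libraries. Liver markers summed to 185 to 273 CPM in day 0 libraries 1 to 3 against 8.21 to 88.9 CPM in the others. Fat markers summed to 92.6 to 132 CPM in day 8 libraries 3 to 5 against at most 66.0 CPM in the others. Skeletal muscle markers summed to 2.08 to 23.0 CPM at day 0, highest in library 1, and to 0.439 to 0.913 CPM at day 8. The libraries high in Xist were 2, 5 and 6 of day 0 and 1 and 2 of day 8. In RNA of the whole kidney, fewer cells of a type and less RNA per cell cannot be told apart.

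**Figure D1:**
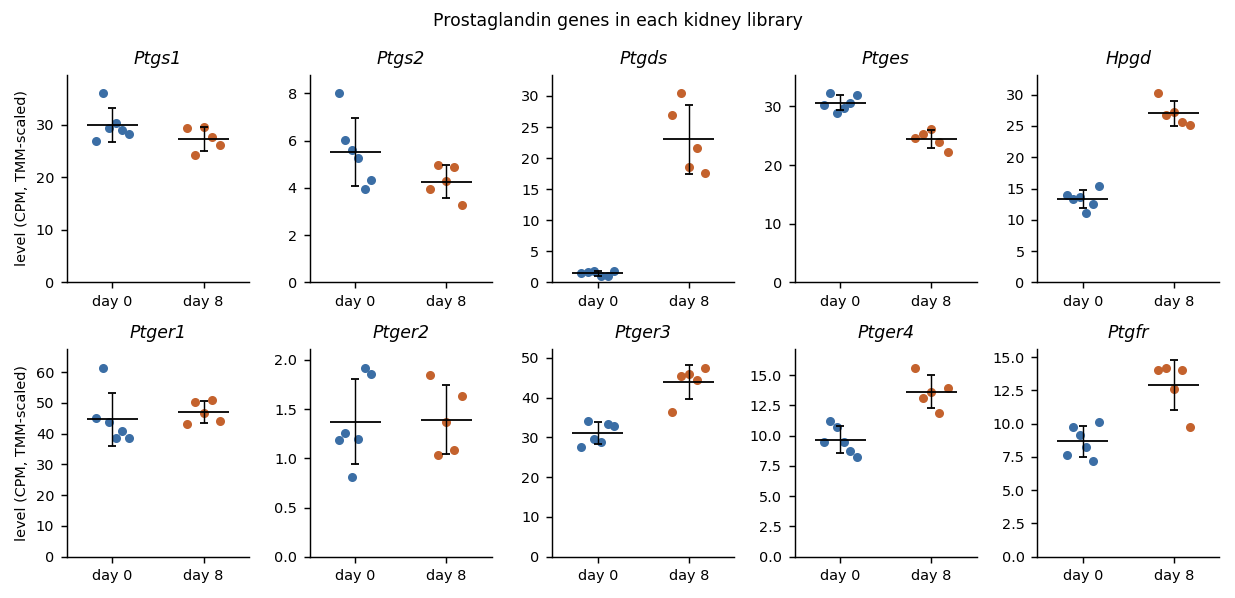
Level of each of the 10 genes (y axis, TMM-scaled CPM from 0) in each library at day 0 (blue, n = 6) and day 8 (orange, n = 5); points are libraries, the long bar is the mean and the error bar the SD. Ptgds separates the ages most, Hpgd, Ptger3 and Ptger4 lie above the day 0 range in all 5 day 8 libraries, and Ptges lies below it.

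Ptgs1 encodes cyclooxygenase-1, the form that many cells hold without induction. It ranged from 26.9 to 36.0 CPM at day 0, with a median of 29.2 CPM, and stood at 29.4, 24.2, 29.6, 27.7 and 26.1 CPM in the 5 day 8 libraries. The ages overlapped, with 2 of the day 8 libraries below the day 0 range and the other 3 within it. The fitted difference was -0.13 ± 0.075 on the log2 scale (SE; edgeR, adjusted p = 0.157). The sign of this small difference depended on the scale: it was called at -0.19 with library size only (adjusted p = 0.0497) and was 0.04 with limma on log2(TPM + 1), a scale on which the median of all genes lay at 0.127.

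Ptgs2 encodes cyclooxygenase-2, the inducible form, which in the kidney cortex is known from the macula densa and the thick ascending limb next to it. It stood between 3.94 and 8.00 CPM at day 0, with a median of 5.44 CPM, and at 3.95, 4.96, 4.29, 4.87 and 3.29 CPM in the day 8 libraries. Day 0 library 1 was the highest of all, while day 0 libraries 5 and 6 lay within the day 8 range, so the ages overlapped. On the log2 scale Ptgs2 differed by -0.37 ± 0.17 (SE; edgeR, adjusted p = 0.0762). Single libraries moved it across the threshold or by more than 1.5 times: it was -0.45 without day 0 library 5 (adjusted p = 0.0305) and -0.23 without day 0 library 1 (adjusted p = 0.216). It was -0.07 without day 0 libraries 1 to 3 (adjusted p = 0.767), which held the most liver marker RNA, and -0.43 with library size only (adjusted p = 0.0347).

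Markers of the cells that hold Ptgs2 moved in both directions between the ages. The 3 macula densa markers summed to 142 to 180 CPM at day 0 and 58.8 to 79.3 CPM at day 8. Of these, Nos1 (neuronal nitric oxide synthase) fell 2.01-fold and Pappa2 (a protease of growth-factor binding proteins) fell 3.13-fold, whereas Avpr1a (a vasopressin receptor) rose 1.42-fold. All 4 thick ascending limb markers rose, and their sum went from 1060 to 1220 CPM at day 0 to 2290 to 2940 CPM at day 8. Ren1, the renin gene of the cells that the macula densa signals to, had a log2 fold change of -0.29 that did not pass the test (edgeR, adjusted p = 0.0626). None of these markers was at 0 at either age, and their part in the Ptgs2 values was not tested.

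Per transcript length, Ptgs1 supplied most of the cyclooxygenase RNA at both ages. Its share of the summed TPM of Ptgs1 and Ptgs2 was 91.2% ± 1.99 (SD, n = 6) at day 0 and 92.5% ± 1.79 (SD, n = 5) at day 8. The shares of the ages overlapped, from 87.7% to 93.2% at day 0 and from 90.5% to 94.2% at day 8.

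Ptgds encodes the lipocalin-type prostaglandin D synthase, a secreted protein that makes prostaglandin D2 and also carries small lipophilic molecules. At day 0 it lay between 0.986 and 1.90 CPM, with a median of 1.60 CPM. In the day 8 libraries it stood at 26.9, 30.4, 18.5, 21.7 and 17.6 CPM. The lowest day 8 library was far above the highest day 0 library, and libraries 1 and 2 were the highest at day 8. This is a log2 fold change of 3.94 ± 0.19 (SE; edgeR, adjusted p = 1.28e-09). Among all 5162 genes called higher, Ptgds ranked 13th by log2 fold change.

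Day 8 libraries 1 and 2, the highest for Ptgds, were the Xist-high ones and held 63.5 and 55.3 CPM of fat markers, within the day 0 range. The other 3 day 8 libraries were Xist-low and held 132, 104 and 92.6 CPM. At day 0 the Xist-high libraries held 1.70, 0.986 and 1.90 CPM of Ptgds and the Xist-low ones 1.51, 1.78 and 1.04 CPM, so the 2 kinds overlapped there. The log2 fold change of Ptgds was 3.97 with Xist as a covariate and 4.10 without day 0 libraries 1 to 3. It was 4.26 without the day 8 libraries of high fat markers, a fit that kept only day 8 libraries 1 and 2. These were the highest for Ptgds at day 8, so a larger value in that fit was set by which libraries remained. The part of the fat markers in the Ptgds values was not tested. Of the 7 fat markers, 5 could be tested and 4 were called higher at day 8, Fabp4 was not, and Lep was at 0 in every day 0 library. Fabp4 made up most of the day 0 sum, at 58.1 ± 5.91 CPM (SD, n = 6) against 56.5 ± 4.6 CPM (SD, n = 5) at day 8. A sum within the day 0 range therefore does not show that day 8 libraries 1 and 2 held no fat RNA. At day 8, the split in Xist and the split in fat markers cannot be told apart.

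The other prostaglandin D synthase gene, Hpgds, which acts in blood-derived cells, stood at 3.68 ± 0.208 CPM (SD, n = 6) at day 0 and 3.64 ± 0.571 CPM (SD, n = 5) at day 8. The difference of -0.02 on the log2 scale did not pass the test (edgeR, adjusted p = 0.903). RNA of the receptors for prostaglandin D2 was scarce: all 6 day 0 libraries together held 5 counts of Ptgdr and the 5 day 8 libraries held 2, and Ptgdr2 had 49 and 17 counts. Neither receptor gene had enough counts to be tested.

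Ptges encodes the microsomal prostaglandin E synthase that is induced together with cyclooxygenase-2 in many tissues. It ranged from 28.9 to 32.2 CPM at day 0, with a median of 30.4 CPM, and stood at 24.6, 25.3, 26.1, 24 and 22.2 CPM at day 8. All day 8 libraries lay below all day 0 libraries. The difference was -0.33 ± 0.053 on the log2 scale (SE; edgeR, adjusted p = 7.26e-05). The call was lost with limma on log2(TPM + 1) without a filter (log2 fold change -0.30, adjusted p = 0.0737), and on the TPM scale the ages overlapped.

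The other 2 prostaglandin E synthase genes moved in opposite directions. Ptges2, the gene of a second membrane-associated form, rose 1.33-fold from 22.0 ± 1.28 CPM (SD, n = 6) to 29.4 ± 3.84 CPM (SD, n = 5). Ptges3, the gene of the cytosolic form, which is also the Hsp90 cochaperone p23, fell 1.35-fold from 196 ± 9.57 to 145 ± 13.2 CPM. Ptges held 7.49% ± 0.672 (SD, n = 6) of the summed TPM of the 3 genes at day 0 and 6.69% ± 1.15 (SD, n = 5) at day 8, and the ages overlapped. Principal cells of the collecting duct are a known site of Ptges, and their 6 markers summed to 296 to 444 CPM at day 0 and 404 to 546 CPM at day 8, with 4 of 6 called higher. Markers of the urothelium of the renal pelvis all fell, 5 of 5, from 43.2 to 63.2 CPM in sum at day 0 to 14.2 to 22.0 CPM at day 8. The part of these markers in the Ptges difference was not tested.

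Hpgd encodes 15-hydroxyprostaglandin dehydrogenase, which starts the breakdown of prostaglandins E2 and F2 alpha. It ranged from 11.1 to 15.4 CPM at day 0, with a median of 13.5 CPM, and stood at 30.2, 26.8, 27.2, 25.7 and 25.2 CPM at day 8. The 5 day 8 libraries lay close together and well above every day 0 library. Hpgd had a log2 fold change of 1.02 ± 0.078 (SE; edgeR, adjusted p = 2.01e-08), which stayed between 0.96 and 1.17 under all 24 alternatives.

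Set against Hpgd, cyclooxygenase RNA was lower at day 8. The ratio of summed Ptgs1 and Ptgs2 to Hpgd, in TPM, was 1.79 ± 0.363 (SD, n = 6) at day 0 and 0.793 ± 0.0595 (SD, n = 5) at day 8. The ratios ranged from 1.28 to 2.23 at day 0 and from 0.722 to 0.865 at day 8, without overlap. Of the 3 genes in it, Hpgd passed the test between the ages and the cyclooxygenase genes did not. RNA ratios do not give the amounts or activities of the enzymes.

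**Figure D2:**
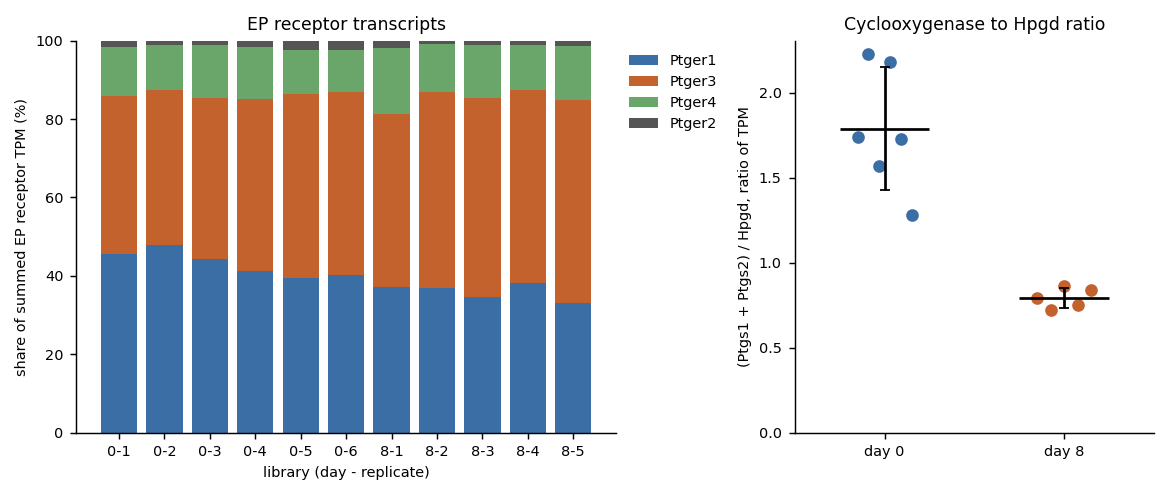
Left, share of each EP receptor gene in the summed TPM of the 4 genes (y axis, percent) for each library, named by day and replicate; right, ratio of summed Ptgs1 and Ptgs2 to Hpgd in TPM per library (points), with the mean and SD (bars). Ptger1 and Ptger3 together make up most of the receptor RNA, the Ptger1 share is below 39% in every day 8 library and above it in every day 0 library, and the ratio at day 8 lies below 0.9 in all 5 libraries.

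The 4 prostaglandin E receptors differ in their signalling: EP1 (Ptger1) raises calcium, EP2 (Ptger2) and EP4 (Ptger4) raise cyclic AMP, and EP3 (Ptger3) mainly lowers it. In the kidney, EP3 is known for opposing vasopressin in the thick ascending limb and collecting duct, and EP4 for renin release. Ptger3 and Ptger4 rose by the same factor, 1.41-fold, and Ptger1 and Ptger2 did not pass the test.

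Ptger3 ranged from 27.7 to 34.1 CPM at day 0, with a median of 31.3 CPM, and stood at 36.5, 45.3, 45.9, 44.4 and 47.5 CPM at day 8. All day 8 libraries lay above the day 0 range, but library 1 was only just above it. Its log2 fold change of 0.50 had an SE of 0.073 (edgeR, adjusted p = 2.66e-05). Ptger4 ranged from 8.27 to 11.2 CPM at day 0, with a median of 9.5 CPM, and stood at 15.6, 13.1, 13.6, 11.9 and 13.9 CPM at day 8. The ages did not overlap, and library 1, the lowest for Ptger3, was the highest for Ptger4. For Ptger4 the log2 fold change was 0.50 ± 0.093 (SE; edgeR, adjusted p = 0.00026). Both calls held under all 24 alternatives. Of the annotated exon bases of Ptger4, 15.3% are shared with a pseudogene on the other strand, Gm15937, which itself had means of 0.455 and 0.432 CPM.

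Ptger1 ranged from 38.5 to 61.4 CPM at day 0, with a median of 42.2 CPM, and stood at 43.0, 50.4, 46.6, 51.0 and 44.1 CPM at day 8. Day 0 library 2 was the highest of all libraries, and all 5 day 8 libraries lay within the day 0 range. Over all libraries Ptger1 differed by 0.07 ± 0.11 on the log2 scale (SE; edgeR, adjusted p = 0.592). Without day 0 library 2 it was 0.19 and passed the test (adjusted p = 0.020), and without day 0 libraries 1 to 3 it was 0.27 (adjusted p = 0.00574). With all libraries it also passed with limma on log2(TPM + 1), at 0.23 (adjusted p = 0.0481), and on log2(TPM + 0.1), at 0.24 (adjusted p = 0.0476), scales on which the median of all genes was above 0. Library 2 also held the most principal cell marker RNA at day 0, 444 CPM against 296 to 331 CPM in the others. At day 8 the 3 libraries highest in Ptger1 (2, 3 and 4) were also the 3 highest in these markers, with 546, 511 and 490 CPM against 412 and 404 CPM. The part of the principal cell markers in these values was not tested.

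The library kit keeps the strand, but the sources used here do not say whether counting used it. Without it, reads of genes that overlap on opposite strands would be mixed. Exon bases of Ptgs1, Ptger2 and Ptgfr also overlapped genes on the opposite strand, with at most 4.85% shared per overlapping gene. Overlaps of Ptger1 with other genes are not reported here, so its level is not shown to be free of them.

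Ptger2 was the scarcest of the 10 genes. It ranged from 0.809 to 1.92 CPM at day 0, with a median of 1.23 CPM, and stood at 1.85, 1.03, 1.37, 1.08 and 1.63 CPM at day 8. The ages overlapped fully. The fitted log2 fold change was 0.02 ± 0.24 (SE; edgeR, adjusted p = 0.961) and lay between -0.10 and 0.14 when single libraries were left out. The gene had 167 counts over the day 0 libraries and 157 over the day 8 libraries.

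The 4 genes' shares of the EP receptor RNA were lower at day 8 for Ptger1 and higher for Ptger3, with ranges that were apart for Ptger1 and overlapped for Ptger3. In TPM, Ptger1 held 43.1% ± 3.29 (SD, n = 6) of the 4 genes at day 0 and 36.0% ± 2.15 (SD, n = 5) at day 8. Ptger3 held 43.1% ± 3.24 at day 0 and 49.2% ± 3.03 at day 8. Ptger4 held 12.1% ± 1.16 and 13.5% ± 2.01, and Ptger2 1.70% ± 0.562 and 1.28% ± 0.39. The ratio of Ptger3 to Ptger4 was 3.61 ± 0.546 at day 0 and 3.72 ± 0.634 at day 8. These shares are descriptions and were not tested. The deposited tables give the transcript type of Ptger1 as retained intron, and that of the other members as protein coding. The level and share of Ptger1 may therefore not stand for receptor-coding RNA alone.

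Ptgfr encodes the prostaglandin F receptor, which raises calcium and is known from the distal nephron. It ranged from 7.16 to 10.1 CPM at day 0, with a median of 8.70 CPM, and stood at 14, 14.2, 12.6, 14 and 9.75 CPM at day 8. Day 8 library 5 lay within the day 0 range and the other 4 above it. Ptgfr had a log2 fold change of 0.57 ± 0.11 (SE; edgeR, adjusted p = 0.000448). The call was lost with limma on log2(TPM + 1), at a log2 fold change of 0.41 (adjusted p = 0.0626), and on log2(TPM + 0.1), at 0.54 (adjusted p = 0.062). TPM per CPM of Ptgfr varied 2.48-fold between libraries, from 0.198 in day 0 library 1 to 0.492 in day 0 library 6. That spread was exceeded by 2.57% of tested genes and compares with a median of 1.34-fold, so the 2 scales rank the libraries differently for Ptgfr.

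The order of the 10 genes per transcript length changed between the ages. At day 0, Ptgs1 was highest at 16.4 ± 2.02 TPM (SD, n = 6), followed by Ptger3 at 13.9, Ptger1 at 13.8, Ptges at 11.8 and Hpgd at 10.3 TPM. Neighbours among these 5 overlapped in range. Below a clear gap came Ptger4 at 3.86, Ptgfr at 2.89, Ptgds at 2.85 and Ptgs2 at 1.57 TPM, again with overlapping neighbours, and Ptger2 was lowest at 0.549 TPM. At day 8, Ptgds was highest at 49.9 ± 8.68 TPM (SD, n = 5), clear of Hpgd at 23.1 TPM. Hpgd, Ptger3 at 22.4, Ptgs1 at 17.1 and Ptger1 at 16.3 TPM overlapped with their neighbours. Ptges at 9.48, Ptger4 at 6.10, Ptgfr at 4.01, Ptgs2 at 1.36 and Ptger2 at 0.578 TPM followed, each clear of the next.

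**Figure D3:**
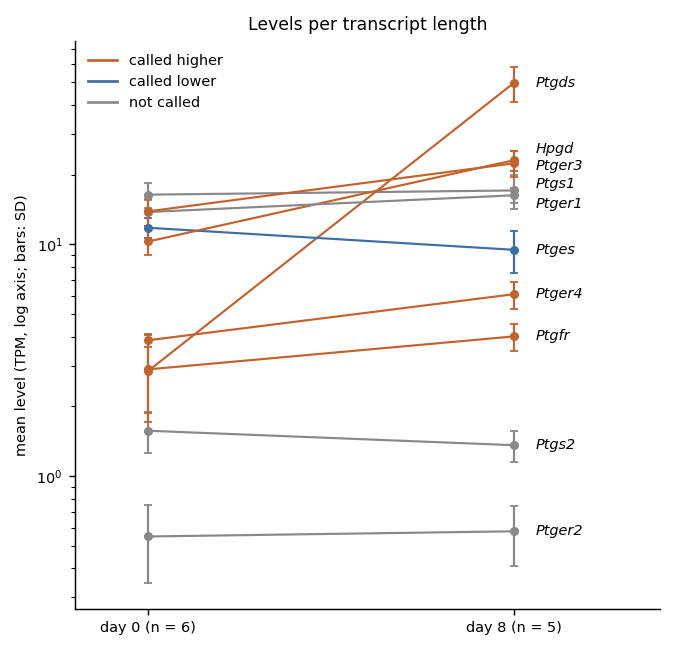
Mean TPM of each of the 10 genes (y axis, log scale) at day 0 (n = 6) and day 8 (n = 5) with SD bars, coloured by the edgeR call. Ptgds moved from 2.85 TPM, among the lower members, to 49.9 TPM, above all others, while Ptgs2 and Ptger2 stayed lowest.

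The rest of the pathway was read from 5 lists of phospholipases A2, other synthases, transport and reduction, other prostanoid receptors, and lipoxygenase and leukotriene genes. Of 50 listed genes, 48 were in the tables and 30 could be tested. Of these, 11 were called higher, 6 lower and 13 not called, against 27.5% higher and 30.1% lower among all tested genes. Their median log2 fold change was 0.04. The shares over all tested genes also apply to the counts of called genes given for single lists and for cell type markers.

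Upstream of cyclooxygenase, Pla2g4a, the gene of the cytosolic phospholipase A2 that supplies much of the arachidonic acid for prostaglandins, stood at 47.4 ± 2.01 CPM (SD, n = 6) at day 0 and 48.5 ± 1.19 CPM (SD, n = 5) at day 8. It differed by 0.03 ± 0.043 on the log2 scale (SE; edgeR, adjusted p = 0.52). Pla2g5, the gene of a secreted phospholipase A2, ranged from 0.519 to 0.991 CPM at day 0, with a median of 0.843 CPM, and stood at 13.5, 15.8, 8.81, 14.7 and 9.18 CPM at day 8. Every day 8 library was far above every day 0 library. It rose 15.9-fold, with a log2 fold change of 3.99 and an SE of 0.20 (edgeR, adjusted p = 2.83e-10). Pla2r1, a receptor gene for secreted phospholipases A2, rose 1.48-fold from 14.1 ± 2.30 to 20.8 ± 2.31 CPM. Of the 8 tested genes of this list, these 2 were called higher and none lower by edgeR, and the other 6 were not called.

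Among the other synthases, 4 of 9 tested genes rose and 3 fell. Ptgis, the prostacyclin synthase gene of vessel walls, fell 1.91-fold from 10.7 ± 1.04 CPM (SD, n = 6) to 5.58 ± 0.768 CPM (SD, n = 5). Tbxas1, the thromboxane synthase gene of platelets and macrophages, rose 1.96-fold from 7.13 ± 0.956 to 13.9 ± 1.17 CPM. The ages did not overlap for either gene (edgeR, adjusted p = 1.74e-06 for Ptgis and 5.01e-07 for Tbxas1). Smooth muscle markers summed to 481 to 553 CPM at day 0 and 372 to 456 CPM at day 8, with 3 of 4 called lower, whereas endothelial markers summed to 557 to 631 CPM and 744 to 825 CPM, with 5 of 5 called higher. Macrophage markers summed to 44.4 to 49.2 CPM and 54.1 to 61.2 CPM, with 2 of 5 called higher, and platelet markers to 6.08 to 8.98 CPM and 5.24 to 6.98 CPM, with 1 of 4 tested called lower. The part of these cell types in the 2 differences was not tested.

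Enzymes that can make prostaglandin F2 alpha also moved in both directions. Cbr1, a carbonyl reductase gene, rose 1.41-fold from 74.7 ± 7.56 to 106 ± 10.4 CPM, and Akr1b3, the aldose reductase gene, rose 1.60-fold from 72.4 ± 16.3 to 116 ± 11.6 CPM. The Akr1b3 call was lost without the day 8 libraries of high fat markers (log2 fold change 0.57, adjusted p = 0.0802). Akr1b7, which in the kidney marks renin cells, fell 1.53-fold (14.4 ± 4.20 CPM at day 0 against 9.39 ± 1.90 CPM at day 8; edgeR, adjusted p = 0.0204). The log2 fold change was -0.62, and it no longer passed at -0.59 without day 8 library 1 (adjusted p = 0.0508), at -0.54 without day 8 library 5 (0.0603) or at -0.24 without day 0 libraries 1 to 3 (0.234). The call was also lost without a filter on counts (0.0597) and with limma on log2(TPM + 1) without a filter (0.0721). Without the day 8 libraries of high fat markers, Akr1b7 was at -0.68 and was not called (0.0949). The part of the fat markers in the Akr1b3 and Akr1b7 calls was not tested.

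Transport and reduction genes followed the same mixed course. Abcc4, the gene of a prostaglandin exporter, rose 1.35-fold from 36.1 ± 2.12 to 48.6 ± 1.73 CPM, whereas the uptake transporter gene Slco2a1 stood at 56.9 ± 4.07 and 61.5 ± 2.22 CPM and did not pass the test (edgeR, adjusted p = 0.0756). Ptgr2, the gene of a reductase that acts after Hpgd, rose 1.53-fold from 53.7 ± 4.21 to 82.0 ± 4.33 CPM. Ptgr1, the gene of a related reductase, fell 1.60-fold from 9.78 ± 0.664 to 6.12 ± 0.675 CPM.

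Both tested genes of other prostanoid receptors rose. Tbxa2r, the thromboxane receptor gene, rose 1.41-fold from 6.77 ± 1.14 CPM (SD, n = 6) to 9.52 ± 1.59 CPM (SD, n = 5). Ptgir, the prostacyclin receptor gene, rose 1.35-fold from 3.22 ± 0.432 to 4.35 ± 0.387 CPM (edgeR, adjusted p = 0.0068). The Ptgir call was lost without the day 8 libraries of high fat markers (log2 fold change 0.40, adjusted p = 0.0992). Over all libraries the log2 fold change was 0.43. The smaller fit kept only day 8 libraries 1 and 2, and the part of the fat markers in the Ptgir call was not tested.

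The lipoxygenase branch uses the same arachidonic acid for leukotrienes and hydroxy fatty acids. Alox15, the gene of 12/15-lipoxygenase, ranged from 1.25 to 2.90 CPM at day 0, with a median of 1.90 CPM, and stood at 0.344, 0.197, 0.183, 0.167 and 0.351 CPM at day 8. All day 8 libraries were below all day 0 libraries, and the gene fell 7.53-fold (log2 fold change -2.91, SE 0.29, edgeR, adjusted p = 4.35e-07). It rests on 232 counts over the day 0 libraries and 28 over the day 8 libraries. Ltc4s, the leukotriene C4 synthase gene, rose 2.02-fold from 0.907 ± 0.236 to 1.84 ± 0.182 CPM. Alox5ap, the gene of the 5-lipoxygenase activating protein, was called lower by a narrow margin (log2 fold change -0.50, edgeR, adjusted p = 0.0493), and the call was lost in 20 of 24 alternatives. Mast cell markers summed to 4.48 to 7.12 CPM at day 0 and 2.16 to 2.94 CPM at day 8, with 4 of 4 tested called lower, and their part in these values was not tested.

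**Figure D4:**
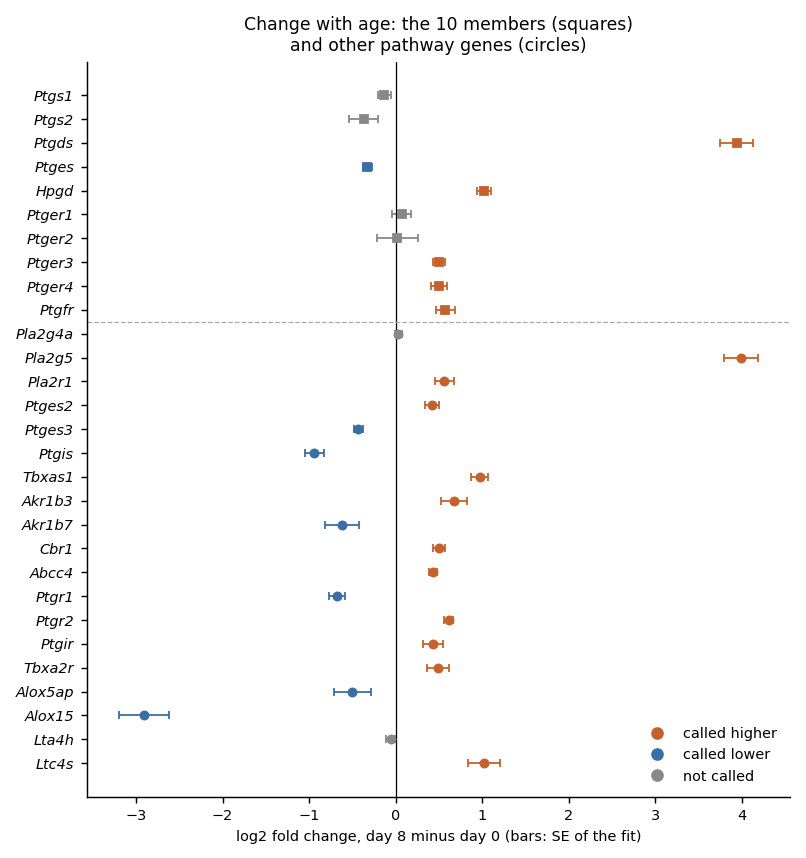
Log2 fold change of day 8 minus day 0 (x axis) with the SE of the fit for the 10 members (squares, above the dashed line) and for pathway genes that passed the test or are abundant (circles), coloured by the edgeR call. Ptgds at 3.94 and Pla2g5 at 3.99 stand far to the right of all others, and Alox15 at -2.91 far to the left.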

How the data were processed

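Whole-kidney RNA-seq of mice at day 0 (6 libraries) and day 8 (5 libraries) was analysed from deposited tables. Per the labels' protocols, libraries were made from total RNA with a stranded, ribosomal-RNA-depleting kit. The authors' tables hold estimated counts per gene, which were rounded here, and TPM, scaled by the authors for transcript length. Per the submitters' processing notes, FastQC, fastp, DRAGEN, Picard and the build mm10 were used; the gene annotation and strand setting are not given in the sources used here. Positions come from GENCODE vM21 on GRCm38 and promoters from RefSeq.

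All genes were tested together in R 4.3.3 with edgeR 4.0.16: filterByExpr, TMM and a robust quasi-likelihood fit with age as its 1 term. P-values were adjusted by Benjamini-Hochberg, with a threshold of 0.05. CPM was scaled by TMM. An error is the SD between libraries, except where it is called SE. The design had foreseen 6 libraries at each age and was fitted on 6 and 5.

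The members and lists were chosen with earlier results of these data known. Named genes are the 10 members, the tested pathway genes that passed the test or were abundant, and, for Ptgds and Ptgs2, the 5 genes of most similar pattern by 2 measures, of which 1 is not reported here. The alternatives tried were DESeq2 1.42.0, limma-voom (limma 3.58.1), other normalisations and filters, limma on log2(TPM + 1) and log2(TPM + 0.1), a threshold of 0.01, the Xist level as a term in the fit, and fits without single libraries or without the day 8 libraries of high fat markers. The fit without day 0 libraries 1 to 3 was chosen after seeing the data. The test was checked on simulated counts, where it recovered 66% of genes changed 1.5-fold and 96% of those changed 2-fold. In that check 50 genes were changed at each fold among 18549, none of them of low count, and counts were drawn from the fitted model. In these data 57.6% of tested genes were called, so the recovery rates do not give the power of this comparison. Not passing the test does not show that a gene was unchanged. Shares and ratios have no test. Akr1b and other gene families that share sequence, and genes that overlap on opposite strands, may share reads.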

Additional observations from a re-analysis of the deposited data

Results flagged for a closer look

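In 6 of 74 groups of libraries, the highest or lowest library stood apart from the others by Dixon's criterion, which chance meets in about 1 group in 20. Among the members, Ptger1 was highest in day 0 library 2 at 61.4 CPM, and Ptger3 was lowest in day 8 library 1 at 36.5 CPM. The same day 8 library had the lowest ratio of Ptger3 to Ptger4 in TPM, 2.62. Among the other pathway genes, Akr1b7 was highest at day 8 in library 4 at 12.7 CPM, and Cbr1 in library 2 at 124 CPM. The share of Ptges in the TPM of the 3 prostaglandin E synthase genes was highest at day 8 in library 3, at 8.70%. The causes were not tested.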

How the results depend on the processing

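No paired analysis was possible because the replicate numbers follow the order of the samples and pair nothing. Ptgds, Hpgd, Ptger3 and Ptger4 kept their direction and their call under all 24 alternatives, with log2 fold changes of 3.75 to 4.26, 0.96 to 1.17, 0.40 to 0.69 and 0.44 to 0.64. The number of members called lower was 3 with library size only, 0 with limma on log2(TPM + 1) without a filter, and 1 to 2 when single libraries were left out. The number called higher was 4 to 6 (with limma on log2(TPM + 1) Ptger1 was called and Ptgfr was not), and for the other pathway genes 10 to 12 were called higher and 4 to 9 lower (9 with DESeq2). Directions turned for small differences. With limma on TPM (pseudocount 1, pseudocount 0.1, and no filter), the log2 fold change of Ptgs1 was 0.04, 0.05 and 0.04, and that of Lta4h, a leukotriene A4 hydrolase gene at -0.06 with edgeR, was 0.05, 0.06 and 0.05. With library size only, Ptger2 was at -0.05 and Pla2g4a at -0.03. Without day 0 libraries 1 to 3, Ptger2 was at -0.25, and leaving out single libraries gave -0.10 to 0.14. On the CPM scale, which is not per length, the Ptgs1 share at day 0 and day 8 was 84.4% and 86.5%, the Ptger1 share 51.2% and 44.4%, the Ptger3 share 36.0% and 41.4%, the Ptges share 12.3% and 12.3%, and the ratio of cyclooxygenases to Hpgd 2.70 and 1.17. The cause of these shifts was not tested, beyond the change of scale itself. The scale also moved the balance of calls over all genes: 27.5% higher and 30.1% lower with TMM, 22.7% and 34.8% with library size only, and 32.3% and 14.7% with limma on log2(TPM + 1). Of the 48 listed pathway genes, 18 had too few counts for a test.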

Other observations

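Genes whose day 8 minus day 0 difference was nearest to that of Ptgds, among called genes with a mean of at least 10 CPM, were F13b (log2 fold change 4.11), Slc5a2 (3.74), Cyp4a14 (3.69), Dio1 (4.25) and Slc34a3 (3.55). Slc5a2 and Slc34a3 encode sodium-coupled glucose and phosphate transporters of the proximal tubule, Cyp4a14 a fatty acid hydroxylase and Dio1 a thyroid hormone deiodinase. The same measure for Ptgs2 gave Wdr86, Mrpl54, Matr3 and Utp4, each at -0.37.

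Within the ages, the libraries' deviations of log2 CPM from the age mean were most alike to those of Ptgds for Sass6 (Pearson r 0.95), Selenot (0.94), Rbbp9 (0.94), Rmrp (0.94) and Zbtb41 (0.93). For Ptgs2 they were Mrfap1 (0.95), Elf2 (0.90), Zfp526 (0.89), Cd164 (0.89) and Mrpl58 (0.89). These are the highest of about 10488 genes over 11 libraries, the libraries share their preparation and depth with every gene compared, and the values are descriptions with no test.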
